A study of Mus musculus with 12 samples.

Results

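The genes described here are 9 that mark B cells and the plasma cells they become: Cd79a, Cd79b, Ms4a1, Cd22, Blk, Pou2af1, Jchain, Mzb1 and Igh-6. Every probe whose gene name in the array files was one of these names, or the older name Igj for Jchain or 2010001M09Rik for Mzb1, was taken, which gave 14 of 41174 probes. They were measured in the livers of 12 male C57BL/6 mice, 3 in each of 4 groups, with 1 single-colour Agilent array per mouse. The groups were SIRT1+/- mice (Het) on a high-fat diet, SIRT1+/+ mice (WT) on a high-fat diet, Het mice on a low-fat diet and WT mice on a low-fat diet, each kept on its diet for 34 weeks. Sirt1 codes for a deacetylase that uses NAD, and the study asked what part it plays in metabolic disease brought on by diet. The labels call the 3 mice of a group biological replicates, so the p-values below measure the spread between mice. For each probe this spread is pooled over the 4 groups, also where the groups differ in spread. The labels give no age at dissection and do not say how the SIRT1 allele was made or in which cells it is lost.

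B cells recognise antigen through a surface immunoglobulin that is held in the membrane with the signalling chains encoded by Cd79a and Cd79b. After activation some of them become plasma cells, which secrete antibody in bulk, and the J chain links secreted IgM and IgA into polymers. Liver holds a small resident and circulating B cell population, and whole-liver RNA comes mostly from hepatocytes. In such RNA fewer B lineage cells and less RNA per cell cannot be told apart.

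The 14 probes did not all give a signal. Of these, 10 probes were above background on all 12 arrays and entered the tests: 1 for Cd79b, 2 for Ms4a1, 1 of 2 for Cd22, 1 for Pou2af1, 2 for Jchain, 1 for Mzb1 and 2 of 3 for Igh-6. Igh-6 is the array's name for Ighm, the constant region gene of the IgM heavy chain. The only probe for Cd79a was well above background on 4 arrays (1 Het high-fat, 1 Het low-fat and 2 WT low-fat) and the only probe for Blk, a Src-family kinase of the B cell receptor, on 2 (1 Het high-fat and 1 WT low-fat). Neither gene therefore had a level that could be compared. The second Cd22 probe and the third Igh-6 probe were not well above background on any array.

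The sequences of 6 probes are given with the genomic site that each signal, or missing signal, belongs to. Each is 60 bases long, as listed in the array files, with the mm7 positions those files give, all on the minus strand except Cd79a. The first pair carries the same gene name, and the sites lie 866871 bases apart on chromosome 12. Igh-6 probe 2 is at chr12:110942769-110942828, among the probes for heavy chain constant regions, and Igh-6 probe 3 is at chr12:111809640-111809699, among those described as heavy chain variable regions. The capitals mark the longest run of alternating G and T bases where it reached 6 bases, a feature of 1444 probes on the array (3.51%).
Igh-6 probe 2: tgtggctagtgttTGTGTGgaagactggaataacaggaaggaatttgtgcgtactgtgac
Igh-6 probe 3: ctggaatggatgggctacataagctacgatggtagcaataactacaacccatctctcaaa
The second pair is from Cd22, a sialic acid-binding receptor that dampens B cell receptor signals. Cd22 probe 1 matches an unbroken stretch at chr7:27806351-27806410, and Cd22 probe 2 spans 1325 genomic bases, chr7:27815904-27817228, so that its 60 bases are not contiguous in the genome.
Cd22 probe 1: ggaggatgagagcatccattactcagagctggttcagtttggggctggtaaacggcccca
Cd22 probe 2: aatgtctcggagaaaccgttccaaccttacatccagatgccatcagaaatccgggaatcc
The last are the sole probes of Cd79a (chr7:21688822-21689079, a span of 258 bases) and Blk (chr14:58242375-58243512, a span of 1138 bases), which are not contiguous either.
Cd79a: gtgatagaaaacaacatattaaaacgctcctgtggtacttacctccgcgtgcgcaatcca
Blk: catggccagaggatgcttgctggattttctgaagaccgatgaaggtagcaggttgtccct

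Among the other tested probes, also placed on mm7, are those of Cd79b at chr11:106420507-106420566, Ms4a1 at chr19:10931002-10931061 and chr19:10931462-10931521, Pou2af1 at chr9:51218585-51218644, Jchain at chr5:88461353-88461412 and chr5:88461523-88461582, and Igh-6 probe 1 at chr12:110940000-110940059. All lie on the minus strand except that of Pou2af1. No annotation of this build was used, so exons and UTRs are not assigned.

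Levels are given as the log2 of a probe's intensity relative to the 75th percentile of its array, so that 0 is the 75th percentile and a difference of 1 is a doubling. That percentile was between 975 and 2006 intensity units, and 58.0% to 71.6% of spots were well above background. Both Sirt1 probes were lower in every Het mouse than in every WT mouse on the same diet: over both diets the differences were -0.64 ± 0.09 and -0.44 ± 0.09 (log2, SE). Their limma adjusted p-values over all 25296 probes tested were 0.355 and 0.935. Arrays of both genotypes shared a slide once per diet. The diets had a scan day each, so diet and scan day cannot be told apart.

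On average the tested members were lower in Het than in WT livers, but no probe passed the test in either diet or over both. Other B lineage genes, taken from lists, lay both ways over both diets. Below 0 were 19 of 22 surface receptors (median -0.11), 12 of 17 receptor signalling genes (-0.02) and 4 of 5 early B cell genes (-0.12). So were 5 of 10 transcription factor genes (0.00) and 5 of 14 plasma cell genes (0.10), several of which also serve secretion in hepatocytes. Over both diets all 10 tested probes were below 0, with a median log2 difference of -0.78, against a median of 0.01 over all probes tested, of which 47.4% were below 0. The lowest differences were those of the plasma cell genes Jchain and Mzb1, and the smallest was that of Cd22. With limma and Benjamini-Hochberg adjustment, 0 of the 10 probes and 0 of the 25296 tested (0%) were called, and the lowest adjusted p-value among the 10 was 0.935. At an unadjusted p under 0.05 there were 6 of the 10, and 1300 (5.14%) of all probes. The 10 probes stand for 7 genes and moved together from mouse to mouse, as described further on, so their shared sign is not 10 separate observations.

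Jchain encodes the small protein that joins secreted IgM and IgA. Its probe 1 had levels of -1.50, -0.50 and -1.46 in the Het high-fat livers and of -0.30, 1.18 and -0.21 in the WT high-fat livers. All Het mice on this diet were below all WT mice. On the low-fat diet the levels were -1.90, -1.75 and -1.33 in Het livers and 1.14, -1.57 and 0.57 in WT livers, where WT mouse 2 lay among the Het mice. The log2 difference between Het and WT was -1.38 ± 0.62 (SE, adjusted p = 0.551) for the high-fat mice and -1.71 ± 0.62 (adjusted p close to 1) for the low-fat mice. Over both diets it was -1.54 ± 0.44 (95% interval -2.51 to -0.57, adjusted p = 0.935), which puts the Het geometric mean at 34.3% of the WT geometric mean. Jchain probe 2, whose site begins 170 bases away on chromosome 5, gave -1.56 ± 0.49 (adjusted p = 0.946).

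Mzb1 encodes an endoplasmic reticulum protein that helps fold and secrete IgM. Its levels were -3.34, -3.29 and -3.72 in the Het high-fat livers, against -3.09, -2.24 and -2.92 in the WT high-fat livers. On the low-fat diet they were -3.69, -3.33 and -3.56 in Het livers, against -0.95, -3.61 and -1.63 in WT livers. The Het groups were narrow, with SDs of 0.24 and 0.18, and the WT low-fat group was wide, with an SD of 1.38 (n = 3 each). The difference over both diets was -1.08 ± 0.37 (95% interval -1.90 to -0.27, adjusted p = 0.966).

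Igh-6 was measured by 2 probes 2769 bases apart. Probe 2 had levels of 0.87, 1.41 and 0.84 in the Het high-fat livers, all below the 1.44, 2.44 and 1.96 of the WT high-fat livers. On the low-fat diet it had -0.13, 0.53 and -0.57 in Het livers and 1.98, -0.65 and 2.20 in WT livers. WT mouse 2 was again the lowest of its group and here the lowest of all 12. The difference over both diets was -1.07 ± 0.44 for probe 2 and -0.50 ± 0.24 for probe 1 (adjusted p = 0.970 and 0.979). The sites lie on the same strand, and the files do not say which exons or forms of the transcript they belong to.

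Pou2af1 encodes the B cell coactivator of octamer-binding transcription factors. It had levels of -2.24, -2.17 and -2.93 in the Het high-fat livers and -2.06, -1.22 and -1.91 in the WT high-fat livers. The low-fat levels were -3.00, -2.15 and -2.42 in Het livers and -0.22, -2.35 and -1.68 in WT livers. The groups did not overlap on the high-fat diet, and the difference over both diets was -0.91 ± 0.33 (adjusted p = 0.970).

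The surface genes of mature B cells come next. Cd79b, a signalling chain of the receptor, had levels of -0.95, -0.61 and -1.16 in Het high-fat livers against -0.81, -0.51 and -0.68 in WT high-fat livers, and -1.20, -0.56 and -1.11 in Het low-fat livers against 0.58, -0.97 and -0.44 in WT low-fat livers. The difference over both diets was -0.46 ± 0.23 (adjusted p = 0.979), and -0.25 without WT low-fat mouse 1. Ms4a1, which encodes CD20, had levels on probe 1 between -3.17 and -2.29 in 11 mice, whichever the group, and -0.38 in WT low-fat mouse 1. Its differences over both diets were -0.65 ± 0.32 and -0.61 ± 0.25 for probes 1 and 2 (adjusted p = 0.979 and 0.970), and -0.31 and -0.39 without that mouse. Cd22 had a difference of 0.08 ± 0.29 in high-fat mice and -0.45 ± 0.29 in low-fat mice, and the interval over both diets was -0.63 to 0.26. Its value over both diets was -0.19 ± 0.20, and -0.0431 without WT low-fat mouse 1.

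**Figure D1:**
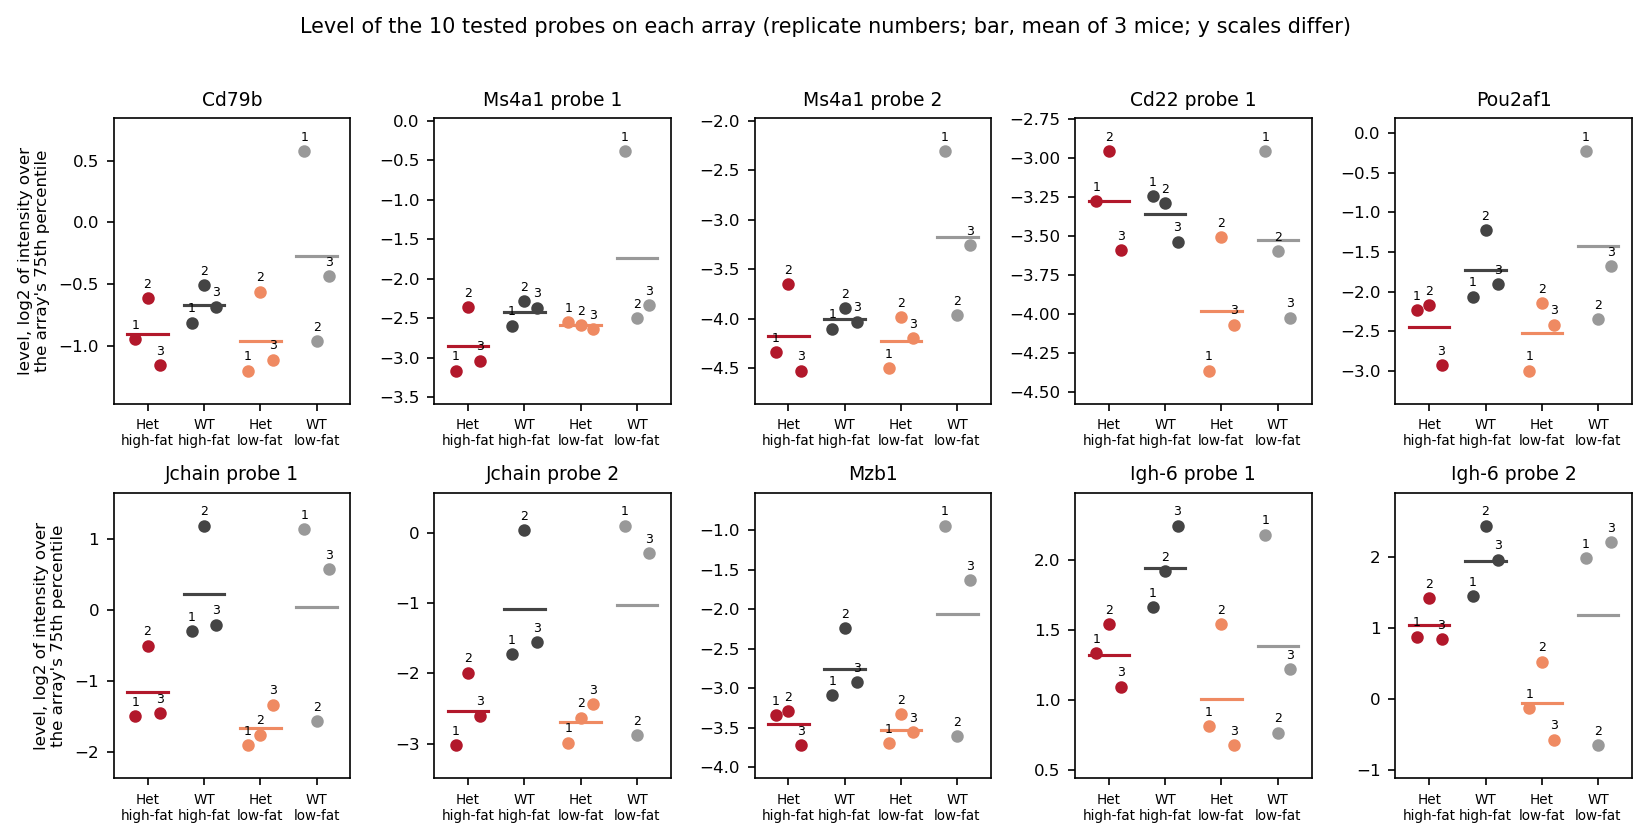
Level of each tested probe on each array (y axis, log2 of intensity over the array's 75th percentile, with its own scale in each panel) for the 4 groups (x axis). Points are mice with their replicate number and bars are means of 3 mice; WT low-fat mice 1 and 3 lie high and WT low-fat mouse 2 lies low for Jchain, Mzb1 and Igh-6 probe 2.

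Counted by overlap, 6 of the 10 probes had every Het mouse below every WT mouse on the high-fat diet: both Jchain probes, Mzb1, Pou2af1 and both Igh-6 probes. Over all probes tested this share was 5.86%, and 9.67% had every Het mouse above every WT mouse, as no member did. On the low-fat diet it was 2 of 10, both for Ms4a1, where the share over all probes was 2.64% (2.11% the other way, with no member). Over both diets no member had all 6 Het mice below all 6 WT mice, a pattern of 0.0198% of probes (0.0316% the other way). The 6 probes are not independent, and limma gave adjusted p-values between 0.551 and 0.745 for them on the high-fat diet. By size the order of the diets was the reverse. The median Het difference of the 10 probes was -0.66 among high-fat mice, against -1.08 among low-fat mice. Among high-fat mice 1 of the 10 had an unadjusted limma p under 0.05, against 9.04% of all probes. Among low-fat mice it was 5 of the 10, against 2.30% of all probes.

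The size of the low-fat differences depended on single WT mice, more for some members than for others. Whichever mouse was left out, the low-fat differences of Jchain, Mzb1 and Igh-6 probe 2 stayed below 0. Without WT low-fat mouse 1 the difference for Ms4a1 probe 1 on that diet was -0.18, against -0.85 with all mice, that for Pou2af1 was -0.51, against -1.10, and that for Igh-6 probe 1 was 0.02, against -0.38. Those for Jchain probe 1 and Mzb1 were -1.16 and -0.91 without it, against -1.71 and -1.47. Without WT low-fat mouse 3 the difference for Igh-6 probe 2 was -0.72, against -1.24, and without WT low-fat mouse 2 it was -2.15. Jchain probe 1 and Mzb1 then had -2.52 and -2.24. No member passed the test in any of these fits. Over both diets Igh-6 probe 1 was -0.30 without WT low-fat mouse 1, against -0.50. On the high-fat diet the Jchain probe 1 difference was -0.90 without WT high-fat mouse 2, against -1.38 with it.

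Within the slide that held 3 Het and 1 WT high-fat arrays, 9 of the 10 differences were below 0, between -0.99 for Jchain probe 2 and -0.14 for Ms4a1 probe 2, with Cd22 at 0.26. Within the slide that held 1 Het and 3 WT low-fat arrays all 10 were below 0, between -1.96 and -0.58.

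**Figure D2:**
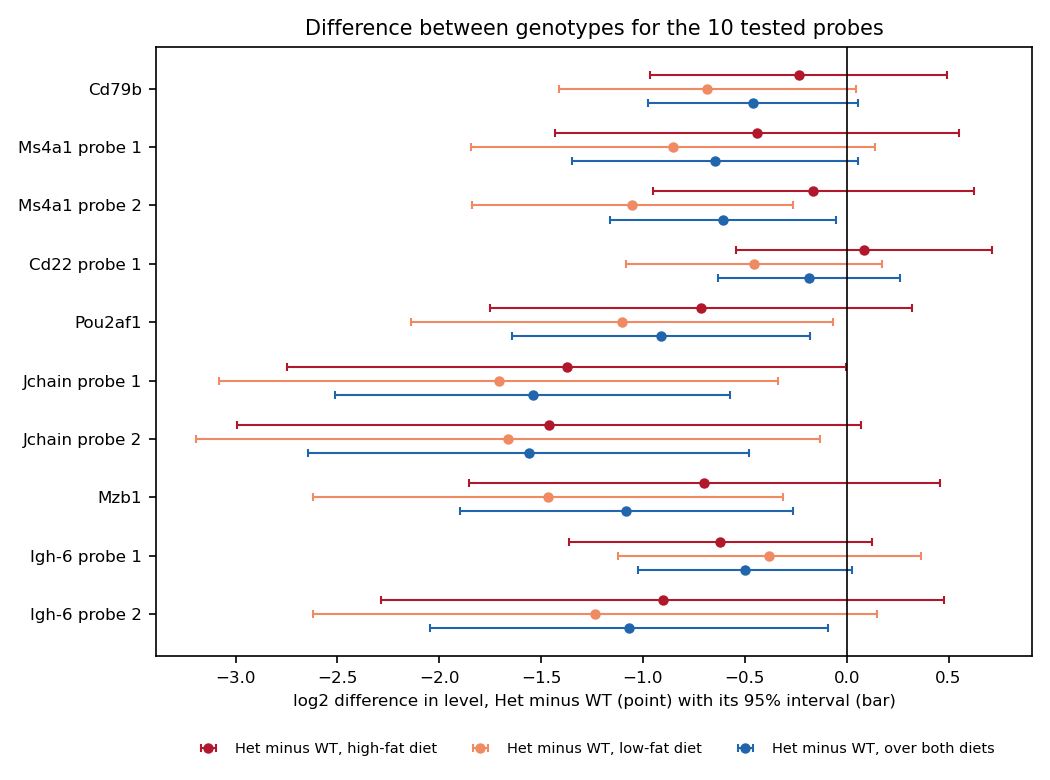
Difference between Het and WT mice (x axis, log2) for each tested probe (y axis) on the high-fat diet, the low-fat diet and over both; points are limma estimates and bars 95% intervals. All 10 points over both diets lie below 0, from -1.56 for Jchain probe 2 to -0.19 for Cd22, and no probe passed after adjustment.

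The array holds 140 further probes whose name or description is that of an immunoglobulin gene, 60 placed at the heavy chain locus on chromosome 12, 56 at the kappa locus on chromosome 6 and 8 at the lambda locus on chromosome 16. Of the 140, 80 were tested. Their differences lay the same way as the members': over both diets 78 of 80 were lower in Het than in WT livers, with a median of -0.86. Over all probes tested 47.4% were lower. Limma called 0 of the 80, with 45 at an unadjusted p under 0.05, where the share over all probes was 5.14%. The medians were -0.79 for 34 heavy chain probes, -0.73 for 30 kappa probes and -0.95 for 8 lambda probes. On the high-fat diet 70 of 80 were below 0 (median -0.68, and -0.36 without WT high-fat mouse 2). On the low-fat diet 73 of 80 were below 0, with a median of -1.04. That median was -0.76 without WT low-fat mouse 1, -0.74 without WT low-fat mouse 3 and -1.61 without WT low-fat mouse 2. A probe entered the test if it was above background in every mouse of any 1 group, so a probe could enter through WT mice alone, which favours a lower Het value. Of the 55 that were above background on all 12 arrays, 54 were below 0 over both diets, with a median of -0.90. Probes of related variable regions can share transcripts, so the 80 are not separate measurements.

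The 5 with the highest mean level were the IgM constant region probe at chr12:110942239-110942298, a kappa light chain probe at chr6:68233198-68233257, 2 probes named Igh-VJ558 at chr12:110781031-110781090 and chr12:110781169-110781228, and a lambda probe at chr16:18615102-18615161. The IgM probe lies 530 bases from Igh-6 probe 2. It had levels of 2.71, 3.47 and 3.22 in Het high-fat livers against 3.65, 4.76 and 4.02 in WT high-fat livers, and 2.62, 3.19 and 1.84 in Het low-fat livers against 5.03, 1.67 and 5.06 in WT low-fat livers. Its difference over both diets was -1.19 ± 0.54 (adjusted p = 0.972). The kappa probe gave -1.56 ± 0.55, the Igh-VJ558 probes -0.90 ± 0.47 and -0.88 ± 0.34, and the lambda probe -0.51 ± 0.36 (adjusted p between 0.970 and 0.992). The Igh-VJ558 sites lie beyond the array's IgE probes as seen from Igh-6, on the side where RefSeq's GRCm38 table places Igha, the IgA constant region gene, beside Ighe. Their name is that of a variable region family.

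**Figure D3:**
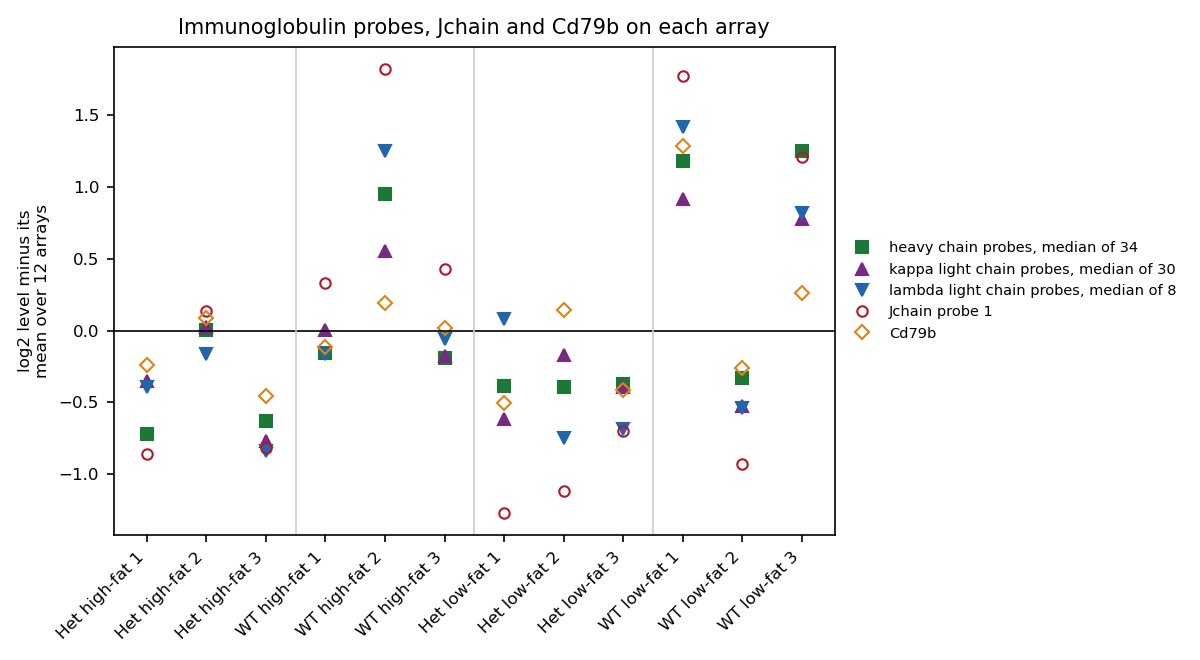
Deviation from the mean of 12 arrays (y axis, log2) on each array (x axis) for the median heavy chain, kappa and lambda probe and for Jchain probe 1 and Cd79b. Heavy chain probes were highest in WT low-fat mice 3 (1.25) and 1 (1.18) and in WT high-fat mouse 2 (0.95), and between -0.72 and 0.00 in every other mouse.

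The mice with high B lineage signal were the same few for most members. WT low-fat mouse 1 was the highest of 12 for 6 of the 10 probes and among the top 3 for all 10. WT high-fat mouse 2 and WT low-fat mouse 3 were each among the top 3 for 8. Het low-fat mouse 1 was the lowest for 4. Markers of some other immune cells also stood high in WT low-fat mouse 1: the mean level of 15 T cell markers was -1.93 there, the highest of the 12 arrays, and the other 11 lay between -2.83 and -2.28. The mean levels of NK cell and MHC class II genes there, -3.31 and 0.33, were the highest of its group, but Het high-fat mouse 1 had -3.15 and 0.73. For macrophage markers it was the lowest of its group (1.91), and for neutrophil markers it was not the highest. The part of other immune cells in the B lineage values of this mouse was not tested.

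Over the 12 arrays most members varied together, and Cd22 had the lowest median correlation with the rest. Cd79b correlated with Ms4a1 probe 2 at r = 0.95 and with Pou2af1 at r = 0.94. Jchain probes 1 and 2 correlated at 0.98, and Jchain probe 1 with Mzb1 at 0.89 and with Igh-6 probe 2 at 0.86. Surface and secretion genes also went together, as Cd79b and Mzb1 did at 0.90, while Ms4a1 probe 1 and Igh-6 probe 2 had 0.39. The 9 pairs with Cd22 had r between 0.32 and 0.68, with a median of 0.43, and the other 36 pairs between 0.39 and 0.98, with a median of 0.79. As deviations from group means the medians were 0.67 and 0.82. All points share their array's scaling, and 1 mouse weighed on them: without WT low-fat mouse 1 the r of Cd79b with Ms4a1 probe 1 was 0.62, against 0.90 with it, whereas that of Jchain probe 1 with Igh-6 probe 2 was 0.86 either way. These r values describe 12 arrays and were not tested.

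**Figure D4:**
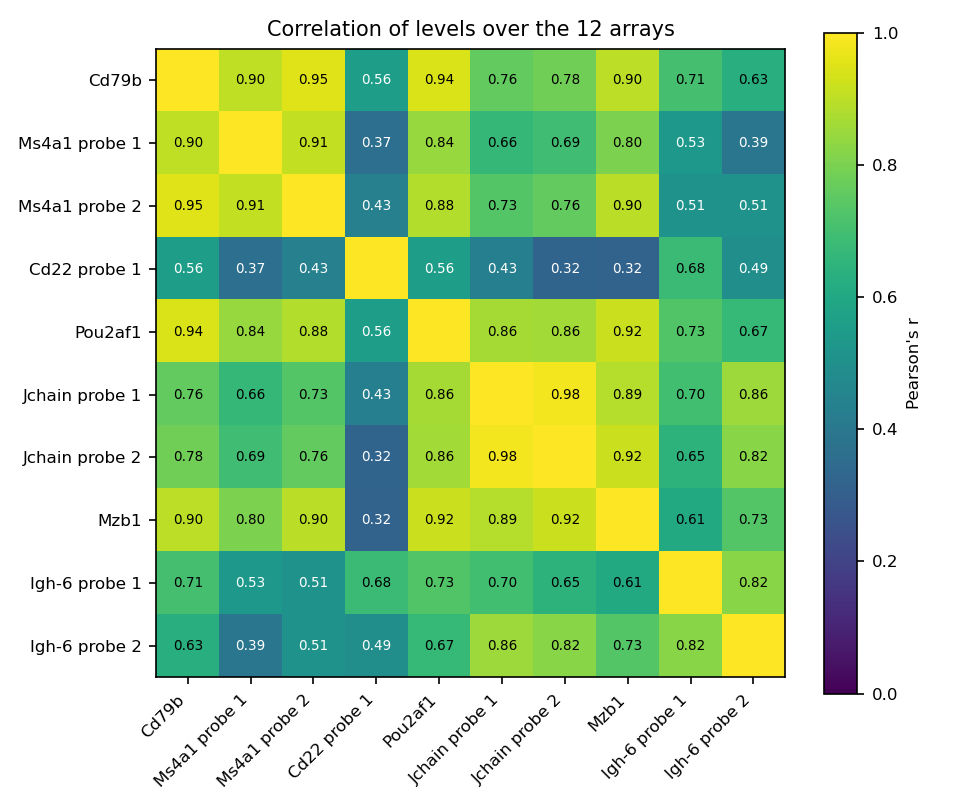
Pearson's r of levels over the 12 arrays for each pair of tested probes (rows and columns; colour from 0 to 1). The pairs with Cd22 run from 0.32 to 0.68, Ms4a1 probe 1 with Igh-6 probe 2 is at 0.39, and the Jchain probes have the highest with each other (0.98).

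The genes whose levels were most like each member's were often B cell or immunoglobulin genes. Cxcr5, the chemokine receptor that draws B cells into follicles, led for Cd79b (r = 0.96) and Ms4a1 (r = 0.93, followed by Pla2g2d at 0.93), and was the second for Pou2af1 (r = 0.94) after the kappa variable gene Igkv14-111 (r = 0.94). The second for Cd79b was a predicted kappa variable region (r = 0.95). Jchain was most like 2 probes on chromosome 6, a complementary DNA clone with no gene name (r = 0.95) and a kappa chain clone (r = 0.93). Mzb1 was most like the same kappa clone (r = 0.97) and a predicted heavy chain variable region (r = 0.96). Cd22 was most like Gmfg (r = 0.94) and Hcst (r = 0.91), an adaptor of activating receptors on NK and T cells. Igh-6 probe 1 was most like Mitf and Tpm2, both at 0.86, and had no probe above 0.9. Likeness was measured over the same 12 arrays among 25220 tested probes, with the members left out. Without WT low-fat mouse 1 the r of Cxcr5 was 0.87 with Cd79b and 0.76 with Ms4a1, while that of Gmfg with Cd22 was 0.94 and that of the kappa clone with Mzb1 was 0.98.

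Other genes of the B lineage, taken from lists, gave no call between genotypes. Of 22 tested B cell surface receptors 19 were below 0 over both diets (median -0.11, 0 called), with Ccr6, a chemokine receptor, at the lowest p (-0.59 ± 0.20, adjusted p = 0.966). Of 17 B cell receptor signalling genes 12 were below 0 (median -0.02), with the scaffold gene Bank1 at -0.41 ± 0.15 (adjusted p = 0.970). Of 10 B cell transcription factor genes 5 were below 0 (median 0.00), with Spib at -0.29 ± 0.25. Of 14 plasma cell genes, several of which also serve secretion in hepatocytes, 5 were below 0 (median 0.10), with Slamf7 at 0.42 ± 0.15. By diet, Slamf7 was at 1.15 ± 0.22 in high-fat mice (limma adjusted p = 0.333) and -0.30 ± 0.22 in low-fat mice. Of 5 early B cell genes 4 were below 0, with Vpreb2 at 0.36 ± 0.15. The medians of T cell, NK cell and macrophage markers over both diets were -0.08, -0.02 and -0.13, with 0 called in each. The diets lay apart in several lists. In high-fat mice 10 of 22 surface receptors were below 0 (median 0.04), with T cell and NK cell medians of 0.15 and 0.19 and 0 of 9 MHC class II genes below 0. In low-fat mice 21 of 22 receptors were below 0 (median -0.36), with T cell and NK cell medians of -0.27 and -0.48 and 9 of 9 MHC class II genes below 0. None of these list genes was called in either diet. The antibody transport and B cell survival list had a median of 0.01 and that of MHC class II 0.05. Those of plasmacytoid dendritic cell, neutrophil, red blood cell and hepatocyte markers were 0.11, 0.27, -0.09 and -0.01, again with 0 called. The part of these cells in the members' differences was not tested.

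The regulators in this paragraph stand outside the naming rule and were chosen after their values were seen. Of the plasma cell regulators, Xbp1 and Prdm1 were above background on all 12 arrays, while Irf4 was well above it on 3 and Tnfrsf17, which encodes the survival receptor BCMA, on 1. Prdm1 had a log2 difference of 0.07 ± 0.33 on the high-fat diet. The brighter of the probes for Pax5, a B cell identity gene, was well above it on 3.

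With all mice and no block, no member probe was called between the diets. Whether the members differed in this from the rest of the array was not tested. Over both genotypes limma called 7439 of 25296 probes (29.4%) between high-fat and low-fat livers, and 0 of the 10 member probes. The median difference of the 10 was -0.04, against -0.03 over all probes. Of the 10, 0 were under an unadjusted p of 0.05, against 42.1% of all probes. Within Het mice 14.8% of all probes and 0 of 10 members were called, and within WT mice 5.69% and 0 of 10. The unadjusted p was under 0.05 for 1 member in each genotype, Cd22 in Het and Ms4a1 probe 2 in WT mice. Over all probes it was under 0.05 for 32.4% in Het and 25.8% in WT mice.

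Over both genotypes Cd22 and Igh-6 had the lowest p-values for diet among the members, though none under 0.05 before adjustment. Cd22 had levels of -3.28, -2.96 and -3.59 in the Het high-fat livers against -4.37, -3.51 and -4.07 in the Het low-fat livers, a difference of 0.71 ± 0.29 (adjusted p = 0.115) in which the groups overlapped. Over both genotypes it was 0.44 ± 0.20 (adjusted p = 0.125). Igh-6 probe 2 was higher in every Het high-fat mouse than in every Het low-fat mouse, by 1.10 ± 0.63 (adjusted p = 0.250), which was the only member with no overlap in that comparison, where 16.6% of all probes showed the same and 19.2% the opposite. In WT mice no member was free of overlap, against 11.5% of all probes higher and 18.5% lower, and none was over both genotypes, against 5.38% and 7.33%. Over both genotypes Igh-6 probe 2 differed by 0.94 ± 0.44 and probe 1 by 0.43 ± 0.24 (adjusted p = 0.133 and 0.192). With slide as a random block these 3 probes passed over both genotypes, with adjusted p between 0.0233 and 0.0388 and differences of 0.45, 0.94 and 0.47 for Cd22, Igh-6 probe 2 and Igh-6 probe 1. That fit called 50.6% of all probes, and its correlation within slides was negative (-0.18), with each slide holding 1 diet. The other members had differences between -0.47 and 0.34 over both genotypes.

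WT low-fat mouse 2 decided other diet calls. Without it 5.98% of all probes were called in WT mice, and among the members Mzb1 was lower in high-fat than in low-fat WT livers by a difference of -1.46 (adjusted p = 0.0256), and Ms4a1 probe 2 by -1.23 (adjusted p = 0.0492). With all mice these differences were -0.69 ± 0.53 and -0.83 ± 0.36, with adjusted p = 0.426 and 0.173. Both Sirt1 probes of this mouse lay above those of every Het low-fat mouse.

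Several other genes of the B lineage lists differed with diet, in shares to be read against the 29.4% of all probes called. Over both genotypes the surface receptor genes Ccr7 (1.02 ± 0.15, adjusted p = 0.00139), Cd72 (0.82 ± 0.18), Cd83 (0.56 ± 0.13) and Tnfrsf13b (0.72 ± 0.18) rose in high-fat livers, and 1 other of the 22, Fcgr2b, fell. These receptors are also made by dendritic cells or other leukocytes. Of the 9 tested MHC class II genes 4 rose, with H2-Aa at 1.09 ± 0.29 (adjusted p = 0.0188). Of 10 genes of antibody transport and B cell survival 2 rose and 4 fell. Pigr, the receptor that carries polymeric IgA and IgM across epithelium and binds the J chain, fell by 0.76 on the log2 scale (adjusted p = 0.0039), and Cxcl13, a ligand of Cxcr5, fell by 2.45 (adjusted p = 0.0106). Tgfb1 rose (0.47 ± 0.10) and Fcgr2b, an inhibitory IgG receptor that is counted in the surface receptor list as well, fell by 0.36. Of 14 plasma cell genes Slamf7 (0.92 ± 0.15) and Fkbp11 (0.41 ± 0.14) rose and Sec11c fell by 0.34. Of 17 B cell receptor signalling genes the kinase gene Syk (0.54), Vav1 (0.54), the phosphatase gene Ptpn6 (0.36) and 1 other rose, and Malt1 fell by 0.59. Of 10 transcription factor genes Irf8 rose (0.48) and Bcl11a fell by 0.53, and of 5 early B cell genes Vpreb2 rose (0.46). Of the markers of other cells, 1 of 15 T cell genes rose and 3 fell, 2 of 14 macrophage genes rose and 2 fell, 3 of 9 neutrophil genes rose and 1 fell, and 3 of 9 hepatocyte genes fell. Of 8 plasmacytoid dendritic cell genes Ly6d (4.09 ± 0.43, adjusted p = 0.000394) and Bst2 (0.32) rose.

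Of the other 80 immunoglobulin probes 3 were called with diet over both genotypes, a share of 29.4% being called over all probes: a predicted J558-type heavy chain variable probe at -0.60 and an Igl-V1 lambda probe at -0.74 were lower, and an antibody heavy chain variable probe at 0.75 was higher, in high-fat livers. They are named because they passed. In WT mice alone 1 was called, an Igh-VJ558 probe at -1.29 (adjusted p = 0.0435), against 5.69% of all probes. Without WT low-fat mouse 2 the calls were 19 in WT mice and 21 over both genotypes (5.98% and 32.2% of all probes), and with slide as a block 15 in each (21.6% and 50.6%).

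The effect of genotype was not shown to depend on diet. The interaction, the Het difference on the high-fat diet minus that on the low-fat diet, was above 0 for 9 of the 10 probes, with a median of 0.40 against 0.03 over all probes. It lay between -0.24 for Igh-6 probe 1 and 0.89 ± 0.51 for Ms4a1 probe 2 (adjusted p = 0.960). For Jchain probe 1 it was 0.33 ± 0.88, with a 95% interval of -1.60 to 2.27, so that a doubling in either direction of the genotype difference between the diets lay within it. Limma called 0 of 10 members and 0 of 25296 probes (0%), with 0 members and 1343 probes at an unadjusted p under 0.05. Without WT low-fat mouse 1, 4 of the 10 were above 0.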

How the data were processed

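Liver RNA of 12 mice was measured on single-colour (Cy3) Agilent arrays. The submitters' processing notes name Agilent Feature Extraction 9.5. The deposited intensity of each spot (its processed signal) is background-subtracted and on a linear scale per the file headers, and the probe positions are those of mm7. The authors' value table equals this intensity on all 45018 spots of each array, so it is uncentred and gave no separate alternative. Flags for non-uniform spots, population outliers and signal well above background were used as deposited.

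Each intensity was taken as log2 minus the log2 of its array's 75th percentile over non-control spots. Control spots and 1344 outlier spots were left out, and spots of a probe were averaged. The 25296 of 41174 probes tested were flagged well above background in every mouse of 1 or more groups. Names were updated through RefSeq's GRCm38.p6 table by accession (22951 probes), symbol (6659) or synonym (3109), and 8455 kept the array's name. The model was limma 3.58.1 (R 4.3.3) on all 12 arrays with group means, 8 residual degrees of freedom and Benjamini-Hochberg adjustment over all tested probes at 0.05. Errors printed after ± are limma standard errors unless marked SD. The number of arrays limits the precision. On simulated data the script recovered 50% to 82% of 2-fold and 95% to 97% of 4-fold changes in the 6 comparisons other than the interaction, where it recovered 22% and 83%. The changes were planted in randomly drawn probes, many at once, which eases the adjustment, whereas the measured genotype comparisons had 0 calls. These shares are therefore not those for the members, some of which had a wide spread, such as Jchain probe 1 (SE 0.62 within a diet).

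The members, the 14 gene lists and the rule for named genes (every member probe, the 5 immunoglobulin probes of highest mean level, called list genes or the list gene of lowest p, and the 2 most alike genes per member) were chosen with earlier results of these data known. The sequences shown were read from the array files. The alternatives were other normalizations, filters and blocks and leaving out each mouse. The Mzb1 probe is not shown as sequence.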

Additional observations from a re-analysis of the deposited data

How the results depend on the processing

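Under every alternative run (quantile normalization, scaling to the median, normexp background, no filter on dim probes, 1 probe per gene name, a trend with GC content and brightness removed, slide as a block, replicate block, only the groups compared, and each mouse left out) 0 member probes were called between genotypes or in the interaction. With diet over both genotypes 3 were called with slide as a block, a fit that called 50.6% of all probes. Leaving out each mouse gave 0 to 2. Without WT low-fat mouse 1 the 2 were Cd22 and Igh-6 probe 1, with 23.6% of all probes called. Without WT low-fat mouse 2 the 1 was Mzb1, with 32.2% of all probes called. Leaving out each mouse gave 0 to 1 in Het mice (Igh-6 probe 2) and 0 to 2 in WT mice (Ms4a1 probe 2 and Mzb1). The highest in each case was without WT low-fat mouse 2, where 16.2% of all probes were called in Het and 5.98% in WT mice.

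No member's genotype difference over both diets changed sign under any of these alternatives. In the other comparisons the signs that changed were these, and the cause was not tested. The Cd22 genotype difference on the high-fat diet, 0.08, was -0.0301 with scaling to the median and -0.24 with the GC and brightness trend removed. With that trend removed the diet difference in Het mice was -0.11 for Cd79b, -0.0587 for Ms4a1 probe 2, -0.0343 for Pou2af1 and -0.0170 for Mzb1. For Jchain probe 2 in WT mice, -0.06 in the report, slide as a block gave 0.0288, removing the trend 0.12, median scaling 0.0598 and quantile normalization 0.00146.

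Leaving out each mouse in turn gave the following ranges. Between genotypes they were -0.42 to 0.0142 for Ms4a1 probe 2 and -0.0756 to 0.24 for Cd22 in high-fat mice, and -0.69 to 0.0165 for Igh-6 probe 1 in low-fat mice. For diet in Het mice they were -0.0921 to 0.25 for Cd79b, -0.20 to 0.23 for Ms4a1 probe 2, -0.16 to 0.32 for Pou2af1, -0.13 to 0.39 for Jchain probe 2 and -0.00691 to 0.21 for Mzb1. For diet in WT mice they were -0.74 to 0.0327 for Cd79b, -1.06 to 0.000322 for Ms4a1 probe 1, -0.0819 to 0.45 for Cd22, -0.78 to 0.29 for Pou2af1, -0.63 to 0.72 and -0.99 to 0.50 for Jchain probes 1 and 2 and -0.14 to 1.28 for Igh-6 probe 2. Over both genotypes they were -0.34 to 0.0435 for Cd79b, -0.35 to 0.18 for Pou2af1, and -0.0588 to 0.62 and -0.42 to 0.32 for Jchain probes 1 and 2. In the interaction they were -0.26 to 0.79 for Ms4a1 probe 1, -0.21 to 0.85 for Pou2af1, -0.21 to 1.14 and -0.36 to 1.13 for Jchain probes 1 and 2, and -0.64 to 0.0706 and -0.18 to 1.25 for Igh-6 probes 1 and 2.

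The median of the other immunoglobulin probes over both diets, -0.86, stayed below 0 under all alternatives, which were chosen after seeing the data, between -1.07 and -0.50. On the high-fat diet it was -0.25 with slide as a block, against -0.68.

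The number of all probes called moved with the settings: between genotypes it was 0 to 68 in high-fat mice, 0 to 6 in low-fat mice and 0 to 9 in all mice. It was 0 to 10 in the interaction, 1127 to 7808 for diet in Het mice (3745 as reported), 206 to 5455 in WT mice (1439) and 5140 to 12809 over both genotypes (7439).

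Same-numbered mice of different groups did not deviate together (r between -0.47 and 0.46, 10 of 18 pairs below 0). No pairing by number was seen, though this check cannot exclude one. With the replicate block 0 members were called in each comparison. The 4 probes left out as too dim (Cd79a, Blk, Cd22 probe 2 and Igh-6 probe 3) give no level to compare.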
